A study of Mus musculus with 6 samples.

Results

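The SR splicing factor genes are 10 mouse genes, Srsf1, Srsf2, Srsf3, Srsf4, Srsf5, Srsf6, Srsf7, Srsf9, Srsf10, and Srsf11. They were chosen by name, as genes of SR proteins that share nuclear speckles with Malat1. The rule used no measured value, although earlier results of these data were known. All 10 are among the 21269 genes of the deposited table. All 10 also passed the filter on low values, a mean of at least 5 normalized counts over the 6 libraries, which 15650 genes passed.

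SR proteins bind enhancer sequences in the exons of a pre-mRNA through RNA recognition motifs, and their tail of repeated arginine and serine residues, the RS domain, helps the spliceosome settle on the nearby splice sites. They are stored in nuclear speckles, the bodies in which the long noncoding RNA Malat1 also collects, and phosphorylation of the RS domain moves them out to sites of transcription. Many SR genes limit their own output through a poison exon or a retained intron, whose premature stop codon sends the transcript into nonsense-mediated decay.

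RNA was sequenced from HL-1 cells, an immortal line derived from mouse atrial cardiomyocytes, so both groups come from the same line. Its strain of origin and the donor age are not given here. Cells were seeded, transfected 24 hours later with 50 nM of a locked nucleic acid (LNA) gapmer, an antisense oligonucleotide that recruits RNase H to the RNA it pairs with, and collected after 48 hours. The 3 LNA Control libraries received a control gapmer and the 3 LNA Malat1 libraries a gapmer against Malat1, so both groups carried LNA. The comparison asks how the SR gene transcripts stood after Malat1 was lowered in a cardiomyocyte line. The labels do not say whether the replicates were separate cultures, so the p-values measure the spread between these samples only, which may be technical.

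Malat1 was examined first, as a check of the labels. Its normalized counts, that is, whole numbers taken to be reads per gene divided by one factor per library and rounded, and given here in the order of replicates 1 to 3, were 5051, 5197, and 4369 with LNA Control against 2833, 2792, and 2732 with LNA Malat1. The groups stood far apart, and the fitted difference on the log2 scale was -0.80 (SE 0.07, adjusted p = 7.5e-06 by limma). Malat1 fell by 42.7% on the fitted scale, so the depletion was partial.

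Library totals of normalized counts ran between 4831007 and 4921406 in LNA Control and between 4758777 and 4762957 in LNA Malat1, and about 4511856 to 5594551 reads per library were recovered from the rounding steps of the values. LNA Malat1 replicates 1 and 3 differed by less than the sampling noise over all genes compared (chi-square of 0.949 per gene over 14522 genes), although not in the 1753 genes of at least 1600 reads (1.11 per gene). Replicates 1 and 2 were also within that noise over all genes (1.01 per gene, chi-square p = 0.15), but not in the 1612 genes of at least 1600 reads (1.67 per gene). As the closest pair, replicates 1 and 3 entered the mean ± SD of that group as 1 sample (n = 2). The limma fit used all 3 LNA Malat1 libraries separately, so the LNA Malat1 SDs are not the spread that its p-values rest on. The LNA Control replicates differed by more than sampling noise. Their chi-square per gene over all genes compared was 2.09 (1 and 2), 4.18 (1 and 3), and 1.77 (2 and 3). In genes of at least 1600 reads it was 6.22, 15.0, and 4.51 for the same pairs. Of 9 atrial cardiomyocyte markers, 8 were in the table, with a summed normalized count of 2687 to 2846 in LNA Control and 2613 to 2673 in LNA Malat1. Tnnt2 (647 to 746) and Gata4 (770 to 923) were well expressed, whereas Myl7 was listed between 18 and 32 and Myh6 between 0 and 7. Of 6 fibroblast markers, 5 were in the table, and they summed to 5304 to 5911 in LNA Control and 4683 to 4817 in LNA Malat1, nearly all of it from Col1a1, Col3a1, and Postn, with Col1a2 at 0 or 1. The 3 endothelial markers measured of 5 summed to 22 to 31 and 36 to 37, and the 2 immune markers measured of 4, Cd68 and Csf1r, to 32 to 36 and 54 to 81. The part of these shifts in the results below was not tested. In bulk RNA, fewer cells of a type and less RNA per cell cannot be told apart.

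No SR gene was called differentially expressed after Malat1 silencing, where a call needed a limma adjusted p of at most 0.05 and a change of at least 1.5-fold. Of all 15650 genes tested, 8.0% were called upregulated and 2.92% downregulated. With quantile normalization the upregulated share of the calls was 52.5% against 73.3%. Calls were rarer at high counts, most of all upregulated ones. Of 3205 tested genes averaging 500 or more, 11 were called upregulated and 71 downregulated. Without the fold change minimum, Srsf11 was higher and Srsf1 was lower in LNA Malat1, and 8 SR genes did not pass. At an unadjusted p of at most 0.05, 2 SR genes passed, beside 6230 of all tested genes. The 1 SR gene higher and 1 lower of 10 stand beside 14.3% of all tested genes that were higher and 14.0% that were lower at that adjusted p. In the 5096 genes whose mean normalized count lay within the range of the SR genes (291.5 to 1663), 33.4% passed in either direction. The median log2 fold change of the 10 SR genes was -0.02, beside 0.02 for all tested genes and -0.05 for 3205 genes whose mean was at least 500. Its sign depended on the scaling, since it was 0.04 after quantile normalization and 0.02 with library totals set equal. The counts are per gene, so they show neither splice isoforms nor protein or phosphorylation.

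**Figure D1:**
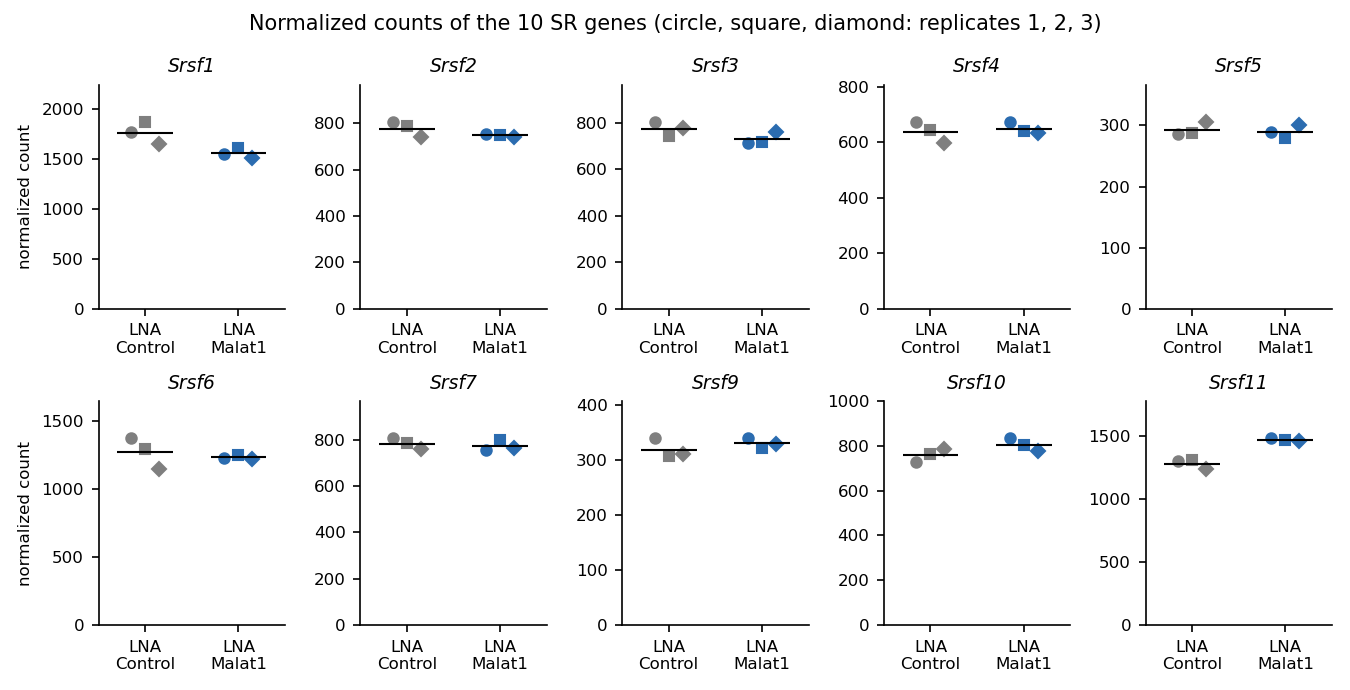
Normalized count (y axis, from 0) of each SR gene in the 3 LNA Control (gray) and 3 LNA Malat1 (blue) libraries, with replicates 1, 2, and 3 as circle, square, and diamond and the mean of the 3 libraries as a line. The groups separate only for Srsf1, where LNA Malat1 lies lower, and Srsf11, where it lies higher.

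Srsf11, which encodes an SR protein that interacts with the splicing factor U2AF, was the SR gene with the largest change on the log2 scale as deposited. With median-of-ratios scaling (-0.20 for Srsf1 and 0.18 for Srsf11), without LNA Control replicate 3 (-0.23 and 0.17), and without LNA Malat1 replicate 2 (-0.201 and 0.197) the change of Srsf1 was larger. The normalized counts of Srsf11 were 1296, 1308, and 1232 with LNA Control against 1478, 1462, and 1453 with LNA Malat1. The lowest LNA Malat1 library exceeded the highest LNA Control library, and the gap was wider than the range within either group. The LNA Control mean was 1279 ± 40.9 (SD, n = 3) and the LNA Malat1 mean 1464 ± 2.47 (SD, n = 2). The SD of 2.47 compares replicate 2 with the average of replicates 1 and 3. Over the 3 LNA Malat1 libraries the coefficient of variation (SD over mean) was 0.865%, and counting alone gives 2.66%. The log2 fold change was 0.20 (SE 0.05, 95% interval 0.09 to 0.31, adjusted p = 0.012 by limma), a fold change of 1.15 with an interval of 1.06 to 1.24. The adjusted p was 0.065 without LNA Malat1 replicate 1 and 0.051 when replicates 1 and 3 of that group were merged, and the fold change was positive in every alternative run. Groups that did not overlap, with LNA Malat1 higher, made up 20.5% of all tested genes.

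Srsf1, the founding member of the family and a regulator of alternative splicing in the heart, moved in the opposite direction. It had normalized counts of 1774, 1876, and 1649 with LNA Control against 1556, 1610, and 1514 with LNA Malat1. The lowest LNA Control library still exceeded the highest LNA Malat1 library, but by less than the LNA Control libraries differed among themselves. The means were 1766 ± 114 (SD, n = 3) and 1573 ± 53.0 (SD, n = 2), and the log2 fold change was -0.18 (SE 0.06, 95% interval -0.31 to -0.05, adjusted p = 0.041 by limma), a ratio of 0.884. Srsf1 missed the adjusted p of 0.05 in 8 of 16 alternatives. The adjusted p was 0.17 without LNA Control replicate 2, 0.13 without LNA Malat1 replicate 1, 0.077 without replicate 2, 0.17 without replicate 3, and 0.15 with replicates 1 and 3 merged, and it was also above 0.05 with library totals set equal (0.072), with scaling to the genes of a mean of at least 500 (0.076), and without a filter on low values (0.066). Non-overlapping groups with LNA Malat1 lower made up 20.8% of all tested genes.

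The ratio of Srsf11 to Srsf1 does not depend on the single factor by which a library was scaled. It was 0.731, 0.697, and 0.747 with LNA Control against 0.950, 0.908, and 0.960 with LNA Malat1, so that Srsf11 counts approached those of Srsf1 in each LNA Malat1 library. The means were 0.725 ± 0.0254 (SD, n = 3) and 0.931 ± 0.0330 (SD, n = 2). The pair was chosen after the values were seen, and no test was made of it.

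The start regions of these 2 genes are shown because they are the SR genes that passed the adjusted p. Each run covers 250 bases before and 50 bases after a RefSeq transcript start (GRCm38.p6), written in the direction of transcription, with capitals for letters that match a GC box, a CCAAT box, or an ETS motif on either strand. Srsf11 lies on the minus strand of chromosome 3 (mm10, 158010473 to 158036639) and has both an upstream start, at chr3:158036557-158036856, and a start inside the gene, at chr3:158031699-158031998. Srsf1 lies on the plus strand of chromosome 11 (88047373 to 88053755) and its start region is chr11:88047123-88047422.
Srsf11 upstream start: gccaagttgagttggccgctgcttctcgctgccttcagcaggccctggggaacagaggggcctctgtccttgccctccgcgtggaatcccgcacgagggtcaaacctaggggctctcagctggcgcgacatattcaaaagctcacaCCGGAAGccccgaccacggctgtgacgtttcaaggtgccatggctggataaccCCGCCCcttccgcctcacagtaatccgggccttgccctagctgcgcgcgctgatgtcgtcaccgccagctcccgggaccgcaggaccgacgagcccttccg
Srsf11 internal start: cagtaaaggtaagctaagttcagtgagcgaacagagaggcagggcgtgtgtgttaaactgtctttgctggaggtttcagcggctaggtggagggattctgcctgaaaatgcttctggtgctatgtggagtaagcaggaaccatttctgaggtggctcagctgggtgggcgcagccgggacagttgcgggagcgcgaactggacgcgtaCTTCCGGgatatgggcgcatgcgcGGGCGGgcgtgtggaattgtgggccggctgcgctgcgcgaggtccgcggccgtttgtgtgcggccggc
Srsf1 start: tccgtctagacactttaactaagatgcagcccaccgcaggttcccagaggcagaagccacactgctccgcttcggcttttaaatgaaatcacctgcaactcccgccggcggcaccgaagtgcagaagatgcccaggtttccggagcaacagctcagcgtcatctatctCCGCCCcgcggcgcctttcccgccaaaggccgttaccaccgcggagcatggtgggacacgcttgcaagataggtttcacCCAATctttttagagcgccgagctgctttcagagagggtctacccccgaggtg
Both Srsf11 regions hold 1 GC box and 1 ETS motif, and the Srsf1 region holds 1 GC box and 1 CCAAT box. The 10 SR genes have 13 start regions in the RefSeq table, with a median GC content of 69.0% against 52.7% for all 32851 regions of 300 bases. A GC box (GGGCGG) was present in 12 of the 13, in every SR gene except Srsf3, against 35.7% of all regions. The ETS motif (CCGGAAG) was present in 6 of 13 (Srsf4, Srsf5, Srsf7, and Srsf11) against 8.86%, and in Srsf5 one ETS match overlaps a GC box. The CCAAT box, spelled as its name, was present in 4 of 13 against 37.4%. The TATA box (TATAAA) was present in 2 of 13, in Srsf2 and Srsf3, against 13.6%. The cAMP response element (TGACGTCA) was in none of the 13, against 1.79% of all regions. The E-box (CACGTG) was likewise in none, against 7.15%. Start regions of one gene can overlap, as in Srsf4, and the full table includes noncoding genes. A match of letters is a description and not a binding site.

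Among the regulators most closely tied to nuclear speckles and exon recognition, Srsf2, whose protein is the classical marker of speckles, had normalized counts of 806, 786, and 739 with LNA Control against 754, 748, and 740 with LNA Malat1. The LNA Malat1 values lay inside the lower end of the LNA Control range, with a log2 fold change of -0.06 (95% interval -0.17 to 0.06, adjusted p = 0.46 by limma). Srsf10, whose protein acts as a splicing repressor once dephosphorylated, had 729, 765, and 786 with LNA Control against 834, 804, and 777 with LNA Malat1. Its groups overlapped through 1 library on each side, and the log2 fold change was 0.08 (95% interval -0.03 to 0.20, adjusted p = 0.27 by limma). Srsf9, which encodes an SR protein with a short RS domain, had 340, 308, and 311 with LNA Control against 340, 323, and 329 with LNA Malat1, with replicate 1 the highest library of each group. Its log2 fold change was 0.05 (95% interval -0.08 to 0.18, adjusted p = 0.58 by limma).

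Srsf3 and Srsf7 encode SR proteins that leave the nucleus with the mRNA and serve as adaptors for the export receptor Nxf1. Srsf3 had normalized counts of 804, 744, and 776 with LNA Control against 715, 718, and 760 with LNA Malat1, so that only LNA Malat1 replicate 3 reached into the LNA Control range. Its log2 fold change was -0.08 (95% interval -0.20 to 0.03, adjusted p = 0.26 by limma). Srsf7 had 806, 787, and 758 with LNA Control against 757, 799, and 766 with LNA Malat1. These groups overlapped almost fully, with a log2 fold change of -0.02 (95% interval -0.13 to 0.09, adjusted p = 0.83 by limma).

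Srsf4, Srsf5, and Srsf6 encode closely related SR proteins with a pair of RNA recognition motifs. Srsf4 had normalized counts of 672, 643, and 596 with LNA Control against 674, 640, and 635 with LNA Malat1, and Srsf6 had 1375, 1298, and 1148 with LNA Control against 1233, 1249, and 1226 with LNA Malat1. For both genes the LNA Malat1 libraries lay within or next to the LNA Control range, in which replicate 3 was the lowest. Srsf5 had 286, 288, and 306 with LNA Control against 289, 280, and 300 with LNA Malat1, also overlapping, but with replicate 3 the highest of each group. The log2 fold changes were 0.03 for Srsf4 (95% interval -0.10 to 0.15, adjusted p = 0.74 by limma), -0.02 for Srsf5 (95% interval -0.15 to 0.11, adjusted p = 0.85 by limma), and -0.04 for Srsf6 (95% interval -0.18 to 0.10, adjusted p = 0.69 by limma).

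A missed threshold does not show that a gene stayed the same, but the intervals bound the fitted difference between these samples. Like the p-values, they rest on the spread between these libraries, which may be technical. They do not bound what a repeat of the silencing would give. The 95% intervals of all 10 SR genes lay inside 1.5-fold in either direction, between ratios of 0.809 and 1.24. For the 8 genes that did not pass, they lay between 0.871 and 1.15. This was also usual for genes of such counts, as 92.8% of the 5096 genes in the same range of means had an interval inside 1.5-fold. Over all alternatives run, the bounds stayed between -0.36 and 0.34 on the log2 scale, inside the limit of 0.585 set by 1.5-fold.

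**Figure D2:**
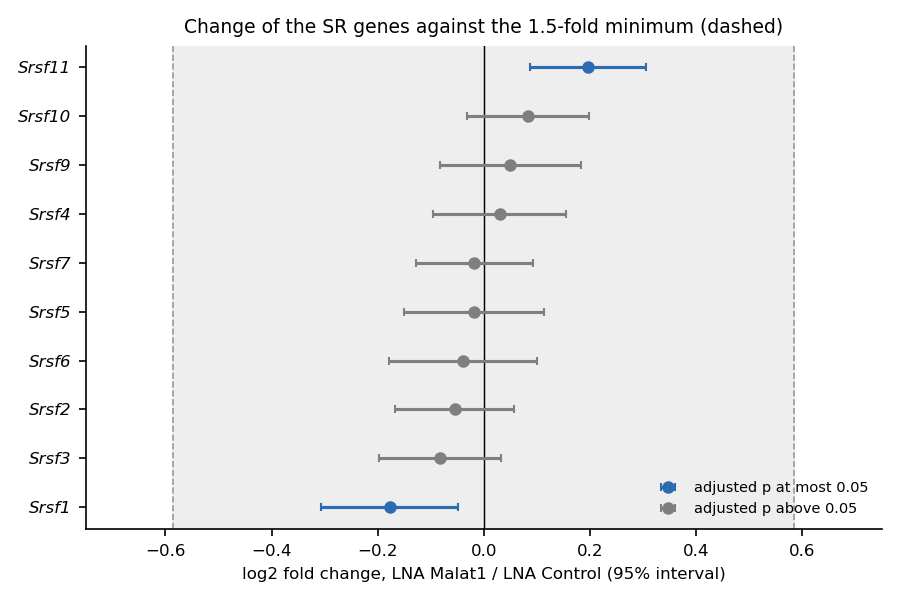
Log2 fold change of LNA Malat1 over LNA Control (x axis) for each SR gene, with 95% intervals from limma and dashed lines at 1.5-fold in either direction. Srsf11 (0.20) and Srsf1 (-0.18), in blue, passed the adjusted p of 0.05, and every interval lies between the dashed lines.

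**Figure D3:**
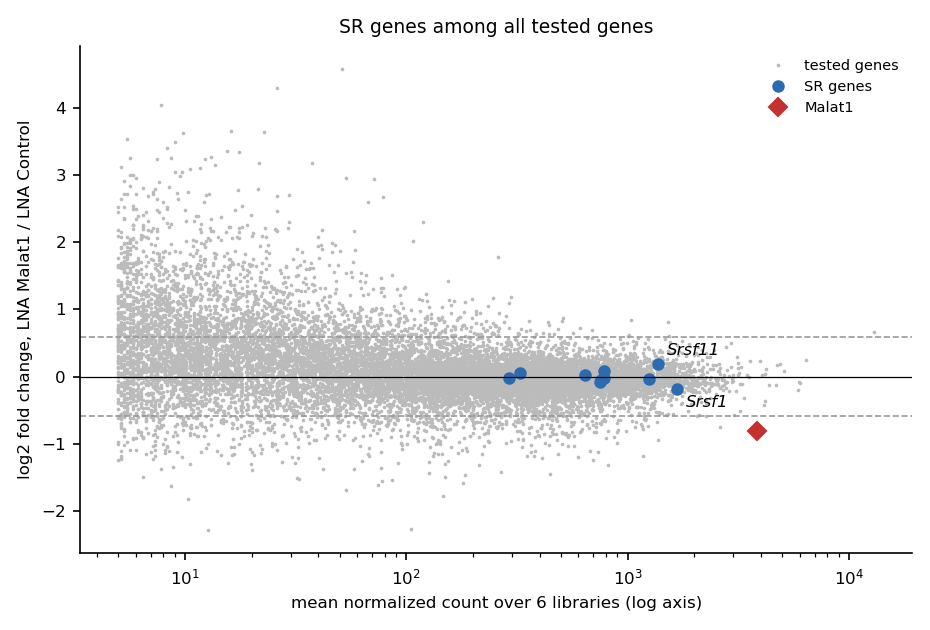
Log2 fold change (y axis) against the mean normalized count over the 6 libraries (x axis, log scale) for the 15650 tested genes (gray), the SR genes (blue), and Malat1 (red). The SR genes sit at means of 291.5 to 1663, where the spread of fold changes is narrow, and none reaches the dashed 1.5-fold lines, which Malat1 (-0.80) passes.

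The spread within groups was uneven. The coefficient of variation of the SR genes ran from 3.08% (Srsf7) to 9.06% (Srsf6) over the 3 LNA Control libraries and from 0.865% (Srsf11) to 3.54% (Srsf10) over the 3 LNA Malat1 libraries. It was smaller in LNA Malat1 for all 10 genes. Recovered reads per library ran from 263 (Srsf5) to 1910 (Srsf1) over the 10 genes. Counting alone gives a coefficient of variation of 2.42% (Srsf1) to 5.77% (Srsf5). The LNA Malat1 libraries varied by less than that in 8 of the 10 genes and the LNA Control libraries in 2. LNA Control replicate 3 was the lowest of its group in 6 of the 10 genes, as was LNA Malat1 replicate 3 in its own.

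The 10 genes together had summed normalized counts of 8888, 8803, and 8301 with LNA Control against 8630, 8633, and 8500 with LNA Malat1. The groups overlapped, with means of 8664 ± 317 (SD, n = 3) and 8599 ± 48.1 (SD, n = 2). As a share of the library total this was 0.177% ± 0.00495 in LNA Control and 0.181% ± 0.000975 in LNA Malat1. Neither difference exceeded the spread of the LNA Control libraries.

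Levels can be set side by side between genes only per length, and here the normalized count was divided by the length of all annotated exons of the gene, in kilobases. On that scale Srsf1 was the highest in LNA Control, at 309 ± 19.9 (SD, n = 3), followed by Srsf6 at 265 ± 24.0, Srsf2 at 263 ± 11.6, Srsf7 at 221 ± 6.81, and Srsf9 at 193 ± 10.7. Below these were Srsf4 at 179 ± 10.8, Srsf11 at 151 ± 4.84, Srsf10 at 109 ± 4.12, Srsf3 at 98.1 ± 3.80, and Srsf5 at 73.6 ± 2.76. Srsf6 and Srsf2 overlapped in their LNA Control libraries, as did Srsf9 and Srsf4, whereas the other neighbors in the order did not. The order was the same in LNA Malat1, where Srsf1 was at 275 ± 9.29 (SD, n = 2) and Srsf11 at 173 ± 0.293. The share of Srsf1 in the summed level per length was 16.6% ± 0.72 in LNA Control and 15.0% ± 0.45 in LNA Malat1, and that of Srsf11 was 8.14% ± 0.13 and 9.43% ± 0.05.

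The order rests on the length used, because the exons of SR genes include retained introns and long noncoding transcripts. Per kilobase of the longest coding transcript, Srsf11 was the highest in LNA Control at 412 ± 13.2 (SD, n = 3), next to Srsf2 at 409 ± 18.1, and Srsf1 had rank 4 at 329 ± 21.2. By this length the order was not the same in LNA Malat1. Srsf1 moved from rank 4 to 5 and Srsf3 from 6 to 8, whereas Srsf7 moved from 5 to 4, Srsf4 from 7 to 6, and Srsf9 from 8 to 7. In their LNA Control libraries Srsf1 overlapped Srsf7, Srsf3 overlapped Srsf4, and Srsf4 overlapped Srsf9, as did Srsf11 and Srsf2 at the top. For Srsf11, 8446 bases of exon stand against 3106 bases in the longest coding transcript, and for Srsf3, 7899 against 2618 bases. The count still holds reads on all exons, so dividing by the shorter length can overstate the levels of these genes. For Srsf1 the lengths are closer, at 5710 and 5362 bases. Srsf5 was the lowest by either length. The order also rests on how overlaps were counted, since reads on several genes were left out. On the opposite strand, Gm12992 covers 43.0% of the exon length of Srsf4. Mettl23 covers 15.6% and Mfsd11 9.74% of that of Srsf2. If the counting ignored the strand, the levels of Srsf4 and Srsf2 are too low here, and their places in the order are not secure.

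**Figure D4:**
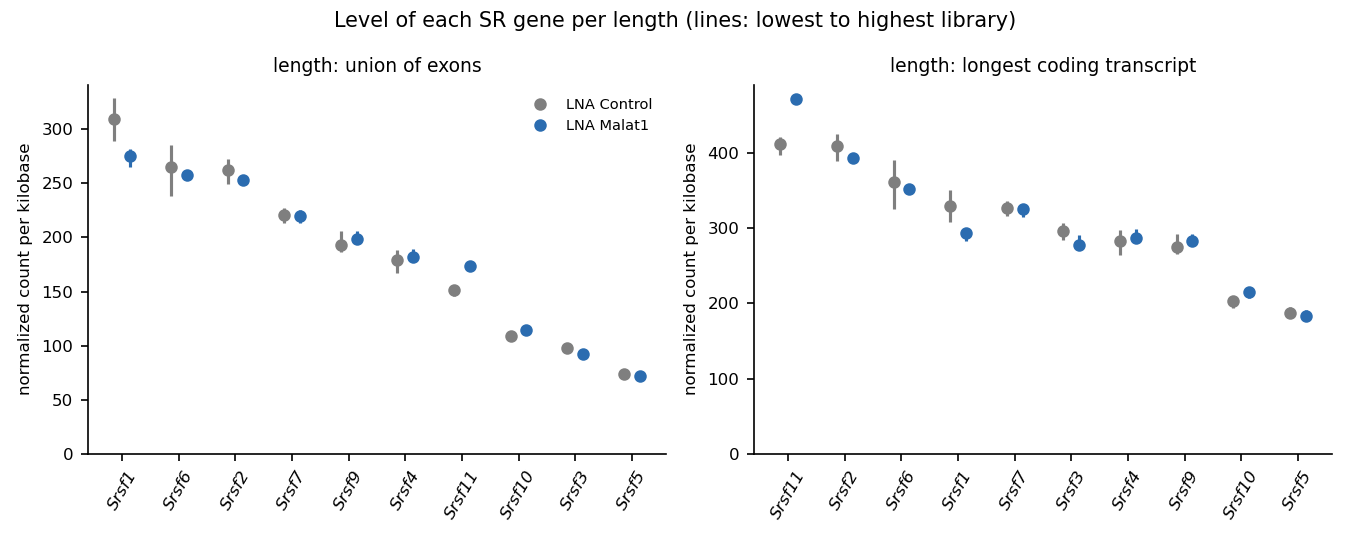
Normalized count per kilobase (y axis, from 0) of each SR gene in LNA Control (gray) and LNA Malat1 (blue), with length as the union of exons (left) or the longest coding transcript (right). Points are group means, with LNA Malat1 replicates 1 and 3 counted as 1 sample, and lines run from the lowest to the highest library. Srsf1 leads on the left and Srsf11 on the right, and Srsf5 is the lowest in both.

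The SR genes carry many annotated transcripts that are not expected to make protein (GENCODE M21, GRCm38). All 10 have the same position there as in the deposited table. At least 1 transcript marked for nonsense-mediated decay was annotated in 9 of the 10, against 28.8% of 12330 tested coding genes, and a retained-intron transcript in 8 of the 10 against 59.0%. Srsf11 has 19 annotated transcripts, of which 11 retain an intron and 3 are marked for decay, whereas Srsf10 has 10 transcripts and none of either kind. The median was 7.5 annotated transcripts per SR gene and 5 per tested coding gene. The longest coding sequence runs from 164 codons in Srsf3, the smallest SR protein, to 491 in Srsf4 and 511 in Srsf11. Reads on any of these exons were counted for the gene, so the values of Srsf11 and Srsf1 add up coding and decay transcripts.

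Some SR genes share sequence or position with other genes, and reads that fell on several genes or regions were not counted. Of the 75-base stretches in its transcripts, Srsf4 shares 37.8% with other annotated genes, all of it with the antisense gene Gm12992, which covers 1532 bases of its exons. Srsf2 shares 18.5% with Mettl23 and Mfsd11 on the opposite strand. Srsf10 (8.5%), Srsf3 (7.64%), and Srsf5 (7.32%) share stretches with annotated copies, most of them processed pseudogenes, and Srsf1 shares 0.45% with the antisense gene Gm11508. Srsf6, Srsf7, Srsf9, and Srsf11 share none. The kit keeps the strand, but the strand setting of the counting was not given in the sources used here, so reads from antisense partners may have been left out or not.

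Among the genes that overlap an SR gene, A930004J17Rik, an uncharacterized transcript inside an intron of Srsf4, was lower in LNA Malat1. Its normalized counts were 297, 286, and 270 with LNA Control against 230, 232, and 267 with LNA Malat1, so that the groups were separated by 3 counts. The log2 fold change was -0.23 (SE 0.07, adjusted p = 0.035 by limma), and the adjusted p was 0.071 without LNA Control replicate 1, 0.1 without LNA Control replicate 2, 0.14 without LNA Malat1 replicate 1, and 0.13 without LNA Malat1 replicate 2, and it was also above 0.05 after quantile normalization (0.089), with library totals set equal (0.068), with scaling to the genes of a mean of at least 500 (0.098), and without a filter (0.068). Gm43362, an uncharacterized transcript that lies between both Srsf11 start regions on the same strand, had 102, 129, and 154 with LNA Control against 154, 154, and 139 with LNA Malat1. These groups overlapped (log2 fold change 0.23, adjusted p = 0.19 by limma). The partners on the opposite strand did not pass either, with Mfsd11 at 206 to 255 over the 6 libraries (log2 fold change 0.14, adjusted p = 0.21 by limma), Mettl23 at 35 to 49 (0.15, adjusted p = 0.53), Gm12992 at 29 to 41 (-0.13, adjusted p = 0.63), and Gm11508 at 7 to 12 (0.02, adjusted p = 0.97).

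The genes that work with SR proteins were described by lists, each set against the 14.3% of all tested genes that were higher and the 14.0% that were lower. That balance did not hold for well-expressed genes. Of the 3205 tested genes with a mean of at least 500, 288 were higher and 727 lower. Of 18 tested genes for other RS-domain and speckle proteins, 3 were higher, 1 was lower, and 14 did not pass, with a median log2 fold change of 0.09. Srek1, an SR-related protein, had 820, 899, and 995 with LNA Control against 1190, 1134, and 1129 with LNA Malat1, with no overlap and a log2 fold change of 0.35 (SE 0.07, adjusted p = 0.0019 by limma). Rsrc2, which encodes a protein rich in arginine and serine, changed by 0.28 (SE 0.06, adjusted p = 0.0054) and Tra2a, a partner of SR proteins on exonic enhancers, by 0.26 (SE 0.05, adjusted p = 0.0017). Luc7l, a relative of a yeast snRNP component, was lower (log2 fold change -0.19, SE 0.05, adjusted p = 0.012). The adjusted p of Luc7l was above 0.05 without LNA Control replicate 2 (0.054), LNA Malat1 replicate 1 (0.057), or LNA Malat1 replicate 3 (0.06). Without LNA Control replicate 3, 5 genes of the list were higher and 2 lower.

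Kinases and importers act on SR proteins directly. Of 10 such genes, 2 were higher and 2 lower, with a median log2 fold change of -0.02. Dyrk1a, a kinase that enters nuclear speckles, had 1383, 1322, and 1266 with LNA Control against 941, 980, and 991 with LNA Malat1. These groups stood well apart, with a log2 fold change of -0.45 (SE 0.05, adjusted p = 6.3e-05 by limma). Srpk1, the kinase that phosphorylates SR proteins in the cytoplasm for import, had 1364, 1323, and 1273 with LNA Control against 1156, 1184, and 1105 with LNA Malat1, and was lower without overlap (log2 fold change -0.20, SE 0.05, adjusted p = 0.013). Clk2, a nuclear kinase that releases SR proteins from speckles, was higher at 303, 316, and 323 against 280, 257, and 255 (0.25, SE 0.06, adjusted p = 0.011), as was Prpf4b, a kinase of the spliceosome (0.24, SE 0.05, adjusted p = 0.0036). The adjusted p of Srpk1 was above 0.05 without LNA Malat1 replicate 1 (0.057) or LNA Malat1 replicate 3 (0.081), and that of Clk2 without LNA Malat1 replicate 3 (0.054). Without LNA Control replicate 3, 4 genes of the list were higher.

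Nonsense-mediated decay removes the transcripts of SR genes that include a poison exon. Of its 10 factors, 2 were higher and 2 lower, with a median log2 fold change of 0.10, and 1 was called downregulated. That gene was Smg9, which encodes a regulator of the kinase that phosphorylates Upf1, at 102, 109, and 123 with LNA Control against 52, 61, and 66 with LNA Malat1. The groups were far apart (log2 fold change -0.89, SE 0.13, adjusted p = 0.00023 by limma). Upf2, a core factor that bridges Upf1 to the exon junction complex, was higher (0.50, SE 0.13, adjusted p = 0.012), but its LNA Control libraries were spread from 620 to 1015 and those of LNA Malat1 from 1143 to 1170. Its log2 fold change was 0.30 without LNA Control replicate 1, the lowest library. Its adjusted p was above 0.05 without LNA Malat1 replicate 1 (0.059), without LNA Malat1 replicate 3 (0.057), and without a filter on low values (0.064). Upf3b, which binds the exon junction complex, was higher (0.31, SE 0.05, adjusted p = 0.0012) and Smg6, the endonuclease of the pathway, was lower (-0.28, SE 0.06, adjusted p = 0.0034).

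Of 9 genes for splice site recognition and mRNA export partners, 2 were lower and 7 did not pass, with a median log2 fold change of -0.04. Both encode export factors. Nxt1, the partner of the export receptor Nxf1, had 83, 77, and 104 with LNA Control against 55, 65, and 57 with LNA Malat1 (log2 fold change -0.56, SE 0.14, adjusted p = 0.0094 by limma). Alyref, an adaptor that loads mRNA for export, had 387, 411, and 407 with LNA Control against 368, 367, and 324 with LNA Malat1 (-0.19, SE 0.06, adjusted p = 0.044). The groups of both genes did not overlap, but leaving out any library except LNA Control replicate 1 took the adjusted p of Alyref to between 0.063 and 0.19. It was also 0.15 after quantile normalization, 0.097 with library totals set equal, 0.15 with scaling to the genes of a mean of at least 500, and 0.076 without a filter. With LNA Malat1 replicates 1 and 3 merged, the adjusted p was above 0.05 for Alyref (0.089), Upf2 (0.063), Srpk1 (0.061), and Luc7l (0.053).

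**Figure D5:**
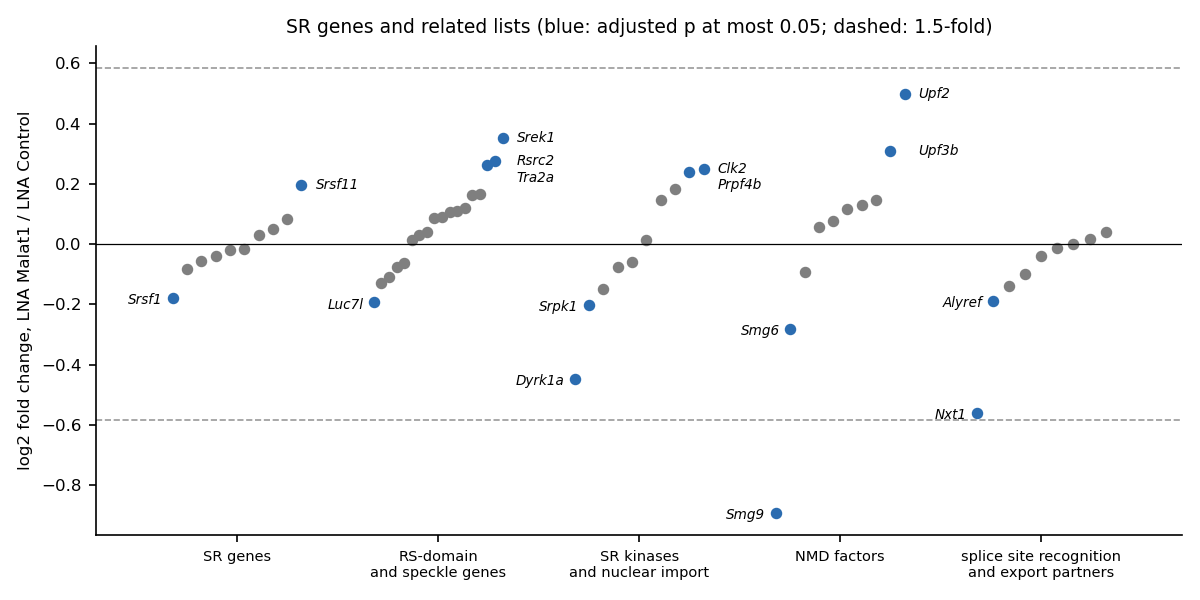
Log2 fold change of LNA Malat1 over LNA Control (y axis) for each tested member of the 5 lists (x axis), ordered within each list, with dashed lines at 1.5-fold. Blue points passed the adjusted p of 0.05 and are named, and only Smg9 (-0.89) lies beyond a dashed line.

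The genes whose pattern over the 6 libraries was most like that of Srsf11 were found among 3204 other genes with a mean of at least 500, by the root mean square difference of log2 values centered on each gene. They were Vwa5a (0.0159), Hsph1 (0.0168), and Smcr8 (0.0209). Vwa5a had 618, 623, and 606 with LNA Control against 707, 700, and 696 with LNA Malat1, Hsph1 had 1286, 1343, and 1246 against 1471, 1485, and 1467, and Smcr8 had 1471, 1467, and 1362 against 1634, 1675, and 1660. Like Srsf11, all 3 had higher values in every LNA Malat1 library than in any LNA Control library. They were chosen for this likeness, so no test is given.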

How the data were processed

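Total RNA of 6 HL-1 libraries was sequenced as single reads of 75 bases with a stranded total RNA kit. According to the methods and the submitters' processing notes, the authors used Trimmomatic 0.39 for trimming, STAR 2.7.7a for alignment to mm10 (Ensembl release 101), and featureCounts 1.6.5 to count reads lying at least partly in exons per gene, without those on several genes or regions. The score that the authors deposited was taken to be this count scaled by one factor per library (they used DESeq2 1.30.0) and rounded, from its near-equal totals and its rounding steps, and the read numbers and counting noise rest on that. Genes with a mean of at least 5 were tested with limma 3.58.1 (R 4.3.3, lmFit and eBayes with an intensity trend) on log2(normalized count + 1), two-sided, with Benjamini-Hochberg adjustment over all 15650 genes, and calls needed an adjusted p up to 0.05 with a change of 1.5-fold or more. Fold changes on this scale understate changes of genes with low counts. With 3 libraries per group, exact permutation cannot go below p = 0.1. Library factors were recovered from gaps and repeats left by rounding, so read numbers are approximate, and statements on sampling noise cover counting error only. The fit was tested on simulated data with the same spread in both groups. That test does not cover the uneven spread seen here. Groups and replicate numbers came from the sample labels. Replicates with the same number deviated together by correlations of 0.086, 0.182, and 0.083 over 10490 genes, so the numbers were not taken to pair libraries. Exon lengths, transcript types, and shared 75-base stretches came from GENCODE M21, and start regions from RefSeq (GRCm38.p6, 250 bases before to 50 after a start). Alternatives covered the replicate block, pseudocounts of 0.1 and 5, 4 other scalings, no filter on low values or a minimum mean of 50, fold minimums of 1.2 or none, LNA Malat1 replicates 1 and 3 as 1 sample, and leaving out each library.

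The genes, lists, and tests were chosen with earlier results of these data known. Named were Malat1, the SR genes, genes overlapping them, up to 4 members of each related list with an adjusted p of at most 0.05 and the largest change, and the 3 genes nearest to the SR gene of largest change. The listed markers Nppa, Dcn, Cdh5, Kdr, Ptprc, and Adgre1 were not found by name in the deposited table. Srsf12 was not analysed here.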

Additional observations from a re-analysis of the deposited data

How the results depend on the processing

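Malat1 stayed lower in every alternative run, and Srsf1, Srsf3, Srsf9, Srsf10, and Srsf11 kept their direction in all 16. Signs near 0 did not hold. After quantile normalization the log2 fold change was 0.0035 for Srsf2, 0.0308 for Srsf5, 0.0228 for Srsf6, and 0.0435 for Srsf7. With library totals set equal it was 0.0186 for Srsf5 and 0.0189 for Srsf7, and with scaling to the genes of a mean of at least 500 it was 0.0365 for Srsf5, 0.0153 for Srsf6, and 0.0368 for Srsf7. With each library left out it ranged from -0.0174 to 0.069 for Srsf4, -0.0435 to 0.0127 for Srsf5, -0.1121 to 0.0179 for Srsf6, and -0.0416 to 0.0027 for Srsf7. Without LNA Control replicate 3 it was -0.0174 for Srsf4 and 0.0127 for Srsf5, without LNA Control replicate 1 it was 0.0179 for Srsf6 and 0.0027 for Srsf7, and without LNA Malat1 replicate 2 it was 0.0061 for Srsf5. The median of the SR genes became 0.0371, 0.0188, and 0.0366 under these 3 scalings and ranged from -0.0295 to 0.0103 with each library left out. The median of all tested genes was -0.0002 after median-of-ratios scaling, -0.0008 after quantile normalization, 0.0542 with totals set equal, 0.0719 with scaling to genes of a mean of at least 500, 0.0673 without a filter, -0.0331 at a mean of at least 50, and 0.012 to 0.0216 with each library left out.

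Without a fold change minimum, 1 SR gene was higher and 1 lower, and no alternative with a minimum of 1.2 or 1.5 called any. No SR gene was higher with LNA Malat1 replicates 1 and 3 as 1 sample, and none was lower with totals set equal, with scaling to genes of a mean of at least 500, without a filter, or with replicates 1 and 3 as 1 sample, whereas leaving out each library gave 0 to 1 higher and 0 to 1 lower. Among all genes, 770 were called upregulated and 696 downregulated after quantile normalization, 317 upregulated at a mean of at least 50, where fewer genes were tested, and 831 with replicates 1 and 3 as 1 sample. There were 2231 and 2195 without a fold change minimum, 1939 and 1506 at 1.2-fold, and 810 to 1582 and 406 to 475 with each library left out, with 810 without LNA Malat1 replicate 1 and 812 without LNA Malat1 replicate 3. Higher RS-domain and speckle genes numbered 7 after quantile normalization, 5 with totals set equal, 7 with scaling to genes of a mean of at least 500, and 3 to 5 with each library left out, and lower ones 0 with replicates 1 and 3 as 1 sample and 0 to 2 with each library left out. Higher kinases and importers numbered 4 after quantile normalization and 1 to 4 with each library left out, and lower ones 1 with replicates 1 and 3 as 1 sample and 1 to 2 with each library left out. Higher decay factors numbered 1 without a filter, 1 with replicates 1 and 3 as 1 sample, and 1 to 3 with each library left out. Lower splice site and export partners numbered 1 in each of quantile normalization, totals set equal, scaling to genes of a mean of at least 500, no filter, and replicates 1 and 3 as 1 sample, and 1 to 2 with each library left out. The cause of these shifts was not tested. By the longest coding transcript, the LNA Control shares of the summed level per length were 10.7% for Srsf1, 13.3% for Srsf2, 9.61% for Srsf3, 9.16% for Srsf4, 6.08% for Srsf5, 11.7% for Srsf6, 10.6% for Srsf7, 8.93% for Srsf9, 6.58% for Srsf10, and 13.4% for Srsf11, because the lengths differ.

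In a fit with a replicate block, 1297 genes were called upregulated and 442 downregulated, and Srsf1 (limma adjusted p = 0.018) and Srsf11 (adjusted p = 0.01) still passed. The block changed no call of Malat1, an SR gene, a list gene named, the 3 genes nearest to Srsf11, or A930004J17Rik. It gave 4 higher RS-domain and speckle genes and 3 higher kinases and importers, 1 more in each. Libraries of each group correlated best with the library of the same number in the other group, a hint from the data and not from the design. Reads per library ran from 263 (Srsf5) to 1910 (Srsf1) over the SR genes. For an SR gene whose 95% interval includes 0, these libraries showed neither a change nor its absence.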
